A study of Homo sapiens with 4 samples.

Results

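The HOXC cluster on chromosome 12 and its surroundings were described in maps of BAF45D on chromatin. The members were the 9 genes HOXC4, HOXC5, HOXC6, HOXC8, HOXC9, HOXC10, HOXC11, HOXC12 and HOXC13, among 19974 protein-coding genes placed on the genome, and all peaks of 4 libraries within 500 kb of the cluster. The cluster runs for 117.2 kb from the start of HOXC13 to the end of HOXC4, and the whole window is chr12:53438831-54556030 (hg38), 1117.2 kb. The window held 47 merged regions of 44534 in the series. Its peaks numbered 7 of the 4204 in the ESC1 list, 17 of the 12533 in ESC2, 40 of the 29783 in NSC1 and 31 of the 24669 in NSC2. At its edges, the outermost peaks inside lay 497 and 494 kb from the cluster, and the next peaks outside lay 517 and 627 kb away.

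HOX genes encode homeodomain transcription factors that give cells their position along the head-to-tail axis. They sit in clusters in the order of the body levels at which they act, and in pluripotent cells they are kept silent by Polycomb repressive complexes. In the spinal cord HOXC4 and HOXC5 mark cervical levels, HOXC6 and HOXC8 the levels of the forelimb, HOXC9 the thoracic levels and HOXC10 the lumbar levels. BAF45D, the product of DPF2, is a subunit of the BAF complex, which uses ATP to move and evict nucleosomes and which counteracts Polycomb at many developmental genes.

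The study compared H9 cells, an established human embryonic stem cell line, with spinal cord neural stem cells made from the same line, with 2 libraries of each. The ESC were grown in mTeSR1 on Matrigel. The NSC had 10 days of neural induction in N2B27 medium with LDN-193189, SB431542, CHIR-99021, FGF2, FGF8 and DAPT, then medium with SB-431542, CHIR-99021 and Hh-Ag 1.5, and later FGF2 and EGF, with Y-27632 used at passages to keep cells alive. CUT&Tag was run on 100000 cells per assay with a rabbit antibody against BAF45D, which brings a transposase to the DNA beside the bound protein.

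Both cell types thus come from 1 cell line, and the labels do not say whether the libraries were separate cultures, so the spread between them may be technical. The headers gave 20734829 and 18953543 tags for the ESC libraries and 5566407 and 5377831 for the NSC libraries. The NSC lists were the longer ones all the same, with 3.25 times the mean number of ESC peaks, and any count in the window has to be read against that. A peak is an interval that passed a q threshold of 0.05 in its own library; where a list has no peak, the signal is unknown, and absence was not measured. More cells bound at a site and more binding per cell cannot be told apart. Marker genes were compared with all protein-coding genes, of which 6.67%, 22.8%, 42.8% and 38.1% had a peak within 1 kb of an end in ESC1, ESC2, NSC1 and NSC2. Peaks lay within 1 kb of an end of 3 and 4 of 9 pluripotency genes in ESC1 and ESC2 and of 2 in each NSC library, with SOX2 and LIN28A in all 4 libraries and L1TD1 in both ESC libraries alone. For neural stem cell genes the numbers were 1, 1, 7 and 7 of 9 in ESC1, ESC2, NSC1 and NSC2, for spinal cord domain genes 1, 1, 4 and 4 of 7, for neuron genes 0, 1, 2 and 1 of 5, for mesoderm and endoderm genes 0, 0, 2 and 2 of 6, and for neural crest genes 0 of 4 throughout. The neuron and the mesoderm and endoderm counts were thus near or below the shares of all genes. The NSC counts for pluripotency and neural crest genes were below the NSC shares. As the NSC lists were longer, each NSC count has to be read against those shares, and the part of list length was not tested.

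Stretches of 250 bases before gene starts are shown for places that differ in the libraries with a peak. None of them lies in a cluster region with peaks in both NSC libraries. The first is the shared start of HOXC4 and HOXC5, covered by a peak in NSC1 alone; the next lie under peaks of all 4 libraries at COPZ1 and CBX5, genes of the upper flank; the last is partly covered in both NSC libraries alone, at the lncRNA SCAT2. Sequences came from RefSeq (GRCh38.p14) and run 5′ to 3′ on the strand of the gene. Capitals mark GGGCGG (the GC box), CCAAT (bound by NF-Y), TTTATNG (a form bound by posterior HOX proteins), TAATTA (a homeodomain core), TGATTGAC and TGATTTAT (forms bound by PBX with HOX), searched on both strands, with overlapping matches run together.
HOXC4 and HOXC5, chr12:54016638-54016887, + strand: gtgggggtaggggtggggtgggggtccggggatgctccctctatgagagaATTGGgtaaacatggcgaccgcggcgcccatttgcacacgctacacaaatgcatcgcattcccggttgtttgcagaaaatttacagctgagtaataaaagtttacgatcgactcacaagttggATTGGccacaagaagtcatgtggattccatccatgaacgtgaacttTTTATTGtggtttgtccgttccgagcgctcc
COPZ1, chr12:54324881-54325130, + strand: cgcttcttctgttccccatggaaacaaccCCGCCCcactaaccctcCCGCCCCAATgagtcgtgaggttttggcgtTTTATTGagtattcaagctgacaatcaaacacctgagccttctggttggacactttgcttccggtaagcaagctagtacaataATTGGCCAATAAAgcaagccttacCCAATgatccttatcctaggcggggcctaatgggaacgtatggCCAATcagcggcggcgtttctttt
CBX5, chr12:54280123-54280372, − strand: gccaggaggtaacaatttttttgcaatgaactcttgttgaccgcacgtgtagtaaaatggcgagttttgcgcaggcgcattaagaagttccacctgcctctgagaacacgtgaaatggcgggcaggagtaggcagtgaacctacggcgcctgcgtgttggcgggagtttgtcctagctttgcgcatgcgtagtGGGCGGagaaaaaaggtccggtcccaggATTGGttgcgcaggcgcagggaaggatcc
SCAT2, chr12:54262365-54262614, + strand: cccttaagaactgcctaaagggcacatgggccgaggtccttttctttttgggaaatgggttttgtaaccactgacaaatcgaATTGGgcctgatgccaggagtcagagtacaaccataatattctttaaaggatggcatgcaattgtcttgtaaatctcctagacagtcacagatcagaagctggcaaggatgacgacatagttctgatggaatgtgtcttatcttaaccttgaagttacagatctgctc

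The start of HOXC4 and HOXC5 held 2 CCAAT and 1 TTTATNG, and neither GGGCGG nor a form for PBX with HOX. Among 34789 promoters of the same length, CCAAT stood in 32.0%, TTTATNG in 8.95%, GGGCGG in 42.6%, TAATTA in 4.37%, TGATTGAC in 0.512% and TGATTTAT in 0.753%. COPZ1 held 5 CCAAT, 2 GGGCGG and 2 TTTATNG. CBX5 held 1 GGGCGG and 1 CCAAT, and SCAT2 held 1 CCAAT. The HOXC start was 50.8% G and C with 14 CG dinucleotides, against a median of 58% and 11 over all promoters. SCAT2 was lower in both, with 43.2% and 3, while CBX5 had 54.8% and 17 and COPZ1 50% and 11. A match to these letters is a description and was not tested as a binding site.

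The HOXC cluster had no BAF45D peak in either ESC library and peaks in both NSC libraries. ESC1 had 0, ESC2 had 0, NSC1 had 6 and NSC2 had 3, on 117.2 kb. The NSC mean was 4.5 ± 2.12 peaks against an ESC mean of 0 (SD over 2 libraries, n = 2), and the groups did not overlap; the two-sided exact permutation test gave p = 0.333, the smallest that 2 libraries against 2 allow. The cluster thus had 51.2 peaks per Mb in NSC1 and 25.6 in NSC2, beside 9.61 and 7.96 over the whole lists. In the flank beyond HOXC4 the densities were 44 and 36 per Mb, and in the flank beyond HOXC13 24 and 20. In NSC2 the cluster was thus less dense than the flank beyond HOXC4. Over the whole lists ESC1 and ESC2 had 1.36 and 4.04 per Mb, a density at which a stretch as short as the cluster holds less than 1 peak. At equal list length the counts were 0, 0, 1 and 1, a difference of 1. Peaks covered 2119 bp of the cluster in NSC1 and 959 bp in NSC2. All 3 NSC2 peaks overlapped a peak of NSC1 and lay in the HOXC4 gene, so the libraries met only in the anterior part of the cluster, as the map of peaks in the cluster shows. The 3 other NSC1 peaks had no partner in NSC2.

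**Figure D1:**
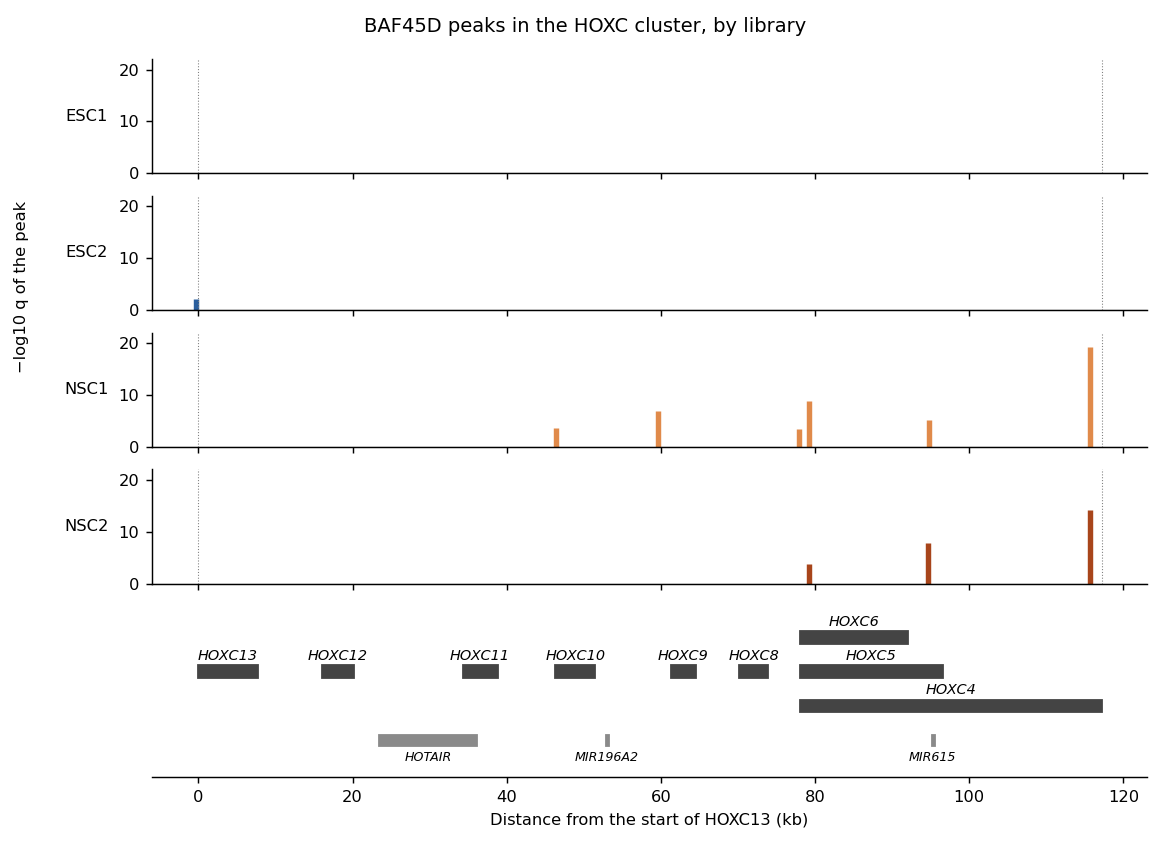
BAF45D peaks in the HOXC cluster: each bar is 1 peak, its height the authors' −log10 q within that library's list, against distance from the start of HOXC13 in kb, with genes drawn to scale and dotted lines at the cluster ends. The 3 places with a bar in both NSC libraries all lie in HOXC4, at the right, and neither ESC library has a bar inside the cluster.

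From the posterior end, HOXC13 (end at 53946544), a gene of the tail end that also acts in hair and nails, had the single ESC peak near the cluster. It lay at chr12:53938448-53938721, 110 bp outside the gene and inside the antisense RNA HOXC13-AS, in ESC2 alone. Its −log10 q was 2.05, and 87.0% of the ESC2 list was stronger. HOXC12 (53954903 to 53958956) had no peak within 10 kb in any library, its nearest being 16182 bp away in ESC2 and 25991 bp away in NSC1. HOXC11 (53973126 to 53977643) had only the NSC1 peak at the next gene, 7304 bp away.

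HOXC10 (53985146 to 53990279), the lumbar gene, carried an NSC1 peak of −log10 q 3.58 over its start, which lay inside the antisense RNA HOXC-AS3 as well. The nearest NSC2 peak was 27574 bp from the gene. HOXC9 (54000161 to 54003337), the thoracic gene, had an NSC1 peak of −log10 q 6.95 at 1578 bp from it and 439 bp from the antisense RNA HOXC-AS1, with the nearest NSC2 peak at 14516 bp. HOXC8 (54008985 to 54012769) had no peak of its own; its nearest were the peaks at the next start, 3856 bp away in NSC1 and 5084 bp away in NSC2. The peaks at HOXC10 and HOXC9 thus rested on NSC1 alone.

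HOXC4, HOXC5 and HOXC6 share a start at 54016888; HOXC5 ends at 54035361, HOXC6 at 54030823 and HOXC4 farther on, at the end of the cluster, so their peaks are largely the same peaks. An NSC1 peak of −log10 q 3.39 at chr12:54016625-54016896 covered all 250 bases of the stretch printed above for HOXC4 and HOXC5, and 76.2% of the NSC1 list was stronger. The NSC-shared peak nearest to that start lay 965 bp inside the genes, at chr12:54017853-54018228. Its −log10 q was 8.82 in NSC1 and 3.68 in NSC2, with 26.8% and 69.9% of the lists stronger. The summits of the 2 libraries stood 88 bp apart.

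A further NSC-shared peak lay inside HOXC4 and HOXC5 at chr12:54033312-54033771, with −log10 q 5.10 in NSC1 and 7.81 in NSC2 and summits 103 bp apart. It was 1590 bp from the end of HOXC5 in NSC1 and 1710 bp in NSC2. The strongest peak of the cluster in each NSC library was the third, at chr12:54054234-54054685, inside HOXC4 and 1354 and 1345 bp before its end. Its −log10 q was 19.3 and 14.2, with 7.10% and 11.5% of the lists stronger, and its summits were 30 bp apart. This region was the 1 place in the cluster that both lists still held when each was shortened to its 4204 strongest peaks, the length of the ESC1 list. The gene table has no transcripts, so a start inside HOXC4 or HOXC5 would not be seen. Distance to a gene end thus does not tell whether a peak inside these genes lies by a start or by a 3′ end.

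Counted by gene, 3 of 9 HOXC genes had a peak within 1 kb of a gene end in both NSC libraries and no ESC library, called NSC-only here. They were HOXC4, HOXC5 and HOXC6, through the 1 region 965 bp inside their start, and 16.2% of all protein-coding genes fell in this class. No HOXC gene was ESC-only, against 0.245% of all genes, and none had a peak in all 4 libraries, against 5.88%. In ESC1, ESC2, NSC1 and NSC2 the numbers were 0, 1, 4 and 3 of 9, against 6.67%, 22.8%, 42.8% and 38.1% of all genes. In the NSC libraries the share of HOXC genes with a peak at an end was near the share of all genes, and in the ESC libraries it was lower, a gap that was not tested for 9 genes. At −log10 q of at least 5, or at equal list length, 0 of 9 were NSC-only. The NSC2 peak inside the shared start, at 3.68, dropped out under both, and at equal list length the NSC1 peak there dropped out too.

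With peaks in the gene or within 10 kb, 4 of 9 were NSC-only, HOXC8 being added, against 19.7% of all genes. Again no HOXC gene was ESC-only (0.701% of all genes) or had peaks in all 4 libraries. The numbers per library were 0, 1, 7 and 4, against 15.3%, 43.4%, 64.2% and 59.2% of all genes. NSC1 had a peak near every HOXC gene from HOXC11 to HOXC4, and NSC2 near HOXC8, HOXC6, HOXC5 and HOXC4 alone. Without NSC2 the count was 7, and at equal list length it was 1, HOXC4.

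The cluster also holds 7 lncRNA genes and 2 microRNA genes. LOC124902939, an lncRNA at the start of HOXC4, was NSC-only at a gene end through the same peaks of −log10 q 8.82 and 3.68. HOTAIR, the lncRNA between HOXC12 and HOXC11 known for its reported link to Polycomb complexes, had no peak within 1 kb in any library, with the nearest at 9993 bp in NSC1, 42899 bp in NSC2 and 23591 bp in ESC2. HOXC13-AS had the ESC2 peak, and HOXC-AS3 and HOXC-AS1 had the NSC1 peaks given above. The other 3 lncRNA genes, HOTAIR among them, had none at an end.

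The mature microRNAs are printed because 1 of the 3 NSC-shared peaks of the cluster lies beside MIR615. Capitals mark the seed, bases 2 to 8, which selects targets; no seed is shared among the 4, and the sequences are those of RefSeq (GRCh38.p14).
hsa-miR-615-5p: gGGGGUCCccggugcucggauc
hsa-miR-615-3p: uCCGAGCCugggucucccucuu
hsa-miR-196a-5p: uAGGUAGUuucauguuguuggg
hsa-miR-196a-3p: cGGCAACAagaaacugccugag

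MIR615 (chr12:54033950-54034045, + strand), inside HOXC5, had the peaks of −log10 q 5.10 and 7.81 at 179 bp before its hairpin in NSC1 and 299 bp before it in NSC2. The nearest ESC peaks were 225531 bp away in ESC1 and 95229 bp away in ESC2. MIR196A2 (chr12:53991738-53991847, + strand), whose product is known to target HOXC8, lay 6361 bp from the nearest NSC1 peak, 26006 bp from NSC2, 267729 bp from ESC1 and 53017 bp from ESC2. Only MIR615 thus had a peak near its hairpin in both NSC libraries. Peak lists say nothing of the level of either microRNA.

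The HOXC peaks stood on high ground. The caller tests each peak against the average signal over 10 kb around it, or against the genome average where that is higher, and this local background could be rebuilt from the deposited pileup and fold enrichment. It is given as a multiple of the library's mean coverage, so 1 is the genome average. In NSC1 the 6 cluster peaks, from HOXC10 towards the end of HOXC4, had local backgrounds of 4.12, 9.36, 12.1, 12.8, 17.2 and 17.99 times the mean coverage. In NSC2 the 3 peaks had 11.6, 12.5 and 14.1. The median over all peaks was 2.95 in NSC1 and 2.88 in NSC2, and the cluster peaks stood at the 68.2 to 99.2 percentile of the NSC1 list and the 97.4 to 98.6 percentile of the NSC2 list.

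The values were higher towards the anterior end in both NSC libraries. Beyond HOXC4 the next peaks both libraries had, at 25263 bp from the cluster, stood at 11.5 and 9.86, and single peaks farther out, in NSC1 at 59365 bp and in NSC2 at 70224 bp, at 3.01 and 3.05. The test for each peak was made against this level. At the peak near the end of HOXC4 the pileup was 45 in NSC1 and 34 in NSC2, exceeded by 2.23% and 4.18% of the lists, while its fold enrichment of 6.17 and 5.93 was exceeded by 36.5% and 40.4%. At the peak 965 bp inside the start the pileups of 26 and 17 were exceeded by 9.91% and 20.6%, and the folds by 67.1% and 95.2%. At the peak beside MIR615 the pileup was 24 in both, exceeded by 11.7% and 10.2%, and the folds by 95.9% and 71.6%. By pileup the 3 regions ranked higher in each list than by fold or −log10 q.

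**Figure D2:**
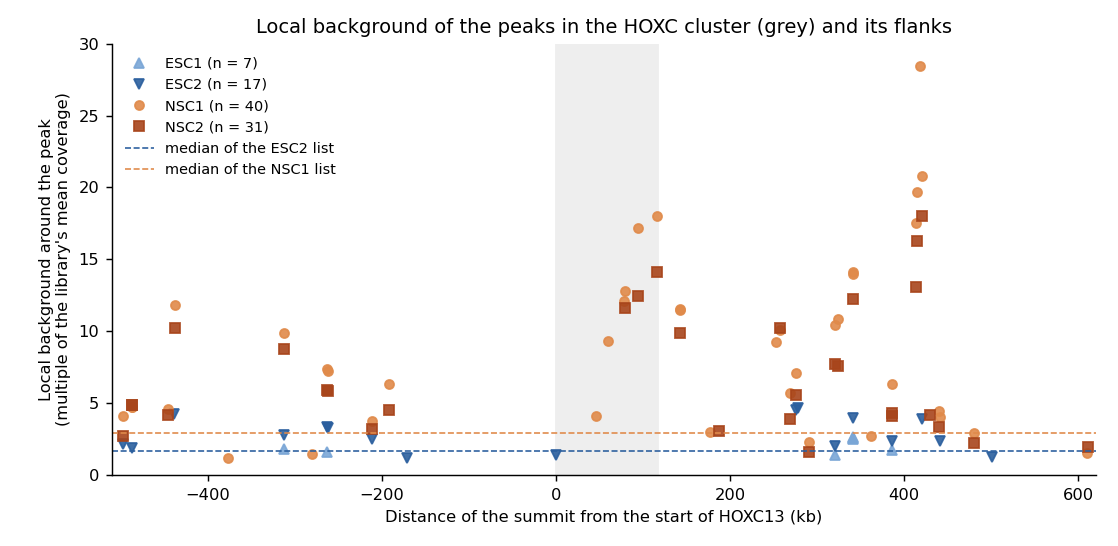
Local background of every peak in the window, as a multiple of the library's mean coverage, against the distance of the summit from the start of HOXC13 in kb; the grey band is the cluster, each point is 1 peak and dashed lines are list medians for ESC2 and NSC1. NSC points in the cluster lie between 4.12 and 17.99, the ESC points of the flanks below 5, and the highest NSC points lie in GPR84, in the upper flank.

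Such a background was not confined to HOXC. The highest value in the window, 28.5 in NSC1, was at a peak inside GPR84, and the NSC2 maximum of 18.04 was in the same gene. Medians in the lower flank were 4.73 in NSC1 and 4.87 in NSC2, and in the upper flank 9.66 and 4.96. For ESC1 and ESC2 they were 1.70 and 2.52 in the lower flank and 2.48 and 3.15 in the upper flank. A peak's own reads are part of its local average; at the peak near the end of HOXC4 they could make up at most 1.99 of a background pileup of 6.46 in NSC1 and 1.22 of 4.90 in NSC2. No background could be rebuilt inside the cluster in ESC, where it had no peak, so the cell types were not compared on it there. The ESC2 peak 110 bp outside HOXC13 stood at 1.39.

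In the whole window ESC1 had 7 peaks, ESC2 17, NSC1 40 and NSC2 31, which made means of 12 ± 7.07 for ESC against 35.5 ± 6.36 for NSC (SD over 2 libraries, n = 2). The libraries did not overlap, the ratio was 2.96 and the difference 23.5 peaks; the two-sided exact permutation test gave p = 0.333, again the smallest possible. The ratio over all peaks was 3.25, so the NSC excess in the window was no larger than that of the lists as a whole. Its share of the ESC1 and ESC2 lists was 0.167% and 0.136%, and of the NSC1 and NSC2 lists 0.134% and 0.126%. At equal list length the counts were 7, 11, 12 and 9, a difference of 1.5 with p = 0.667 by the same exact test, and ESC2 then lay between the NSC libraries.

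The lower flank, on the side of HOXC13, had 2, 9, 12 and 10 peaks in ESC1, ESC2, NSC1 and NSC2, a ratio of the means of 2. The upper flank had 5, 8, 22 and 18, a ratio of 3.08. The longest stretch without any peak of any library, 170.458 kb at chr12:53767990-53938447, ran right up to the HOXC13 end of the cluster and held no protein-coding gene. Peaks of the window covered 1932 and 6954 bp in ESC1 and ESC2 and 15467 and 12220 bp in NSC1 and NSC2.

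**Figure D3:**
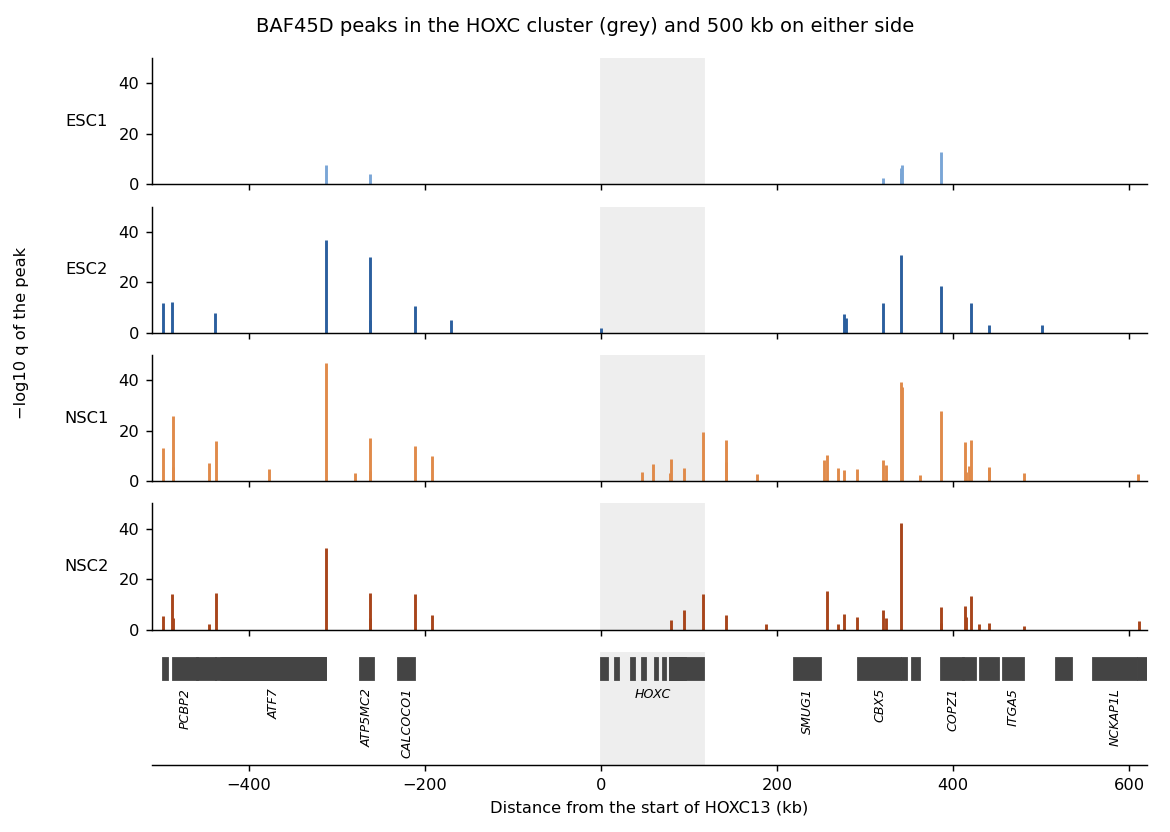
BAF45D peaks in the HOXC cluster (grey) and its flanks, 1 track per library: each bar is 1 peak, its height the authors' −log10 q within that list, against distance from the start of HOXC13 in kb, with protein-coding genes below. Bars at the same flank places recur in all 4 libraries, with none above 12.7 in ESC1. Bars in the grey band occur in the NSC libraries only, and the short ESC2 bar at 0 lies 110 bp outside the band.

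Merging overlapping peaks gave 47 regions in the window. Of these 15 (31.9%) were NSC-only, close to the 30.6% over all regions of the series. None was ESC-only, against 1.65%, and 5 (10.6%) had a peak in all 4 libraries, against 3.27%. Without NSC2 the number of NSC-only regions was 26, at −log10 q of at least 5 it was 6 and at equal list length 1. Among the 27 regions with peaks in both NSC libraries, 12 (44.4%) also had an ESC peak, against 23.3% over the series. The cluster and flanks differed here: 7 of 10 in the lower flank, 5 of 14 in the upper flank and 0 of 3 in the cluster. These counts are small and the difference between them was not tested.

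By place, 20 of the 47 regions lay within 1 kb of a gene end, 13 inside a gene and 14 outside protein-coding genes. All 5 regions of all 4 libraries lay at a gene end (3) or inside a gene (2). The NSC-only regions were spread over the 3 kinds of place, with 5, 6 and 4. Places were not counted over all regions of the series, so these numbers describe the window alone. In the cluster itself 3 regions were NSC-only and 3 had a peak in NSC1 alone. The summits of NSC1 and NSC2 lay a median of 88 bp apart in the 3 shared cluster regions, 37.5 bp in 10 of the lower flank and 45 bp in 14 of the upper flank.

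**Figure D4:**
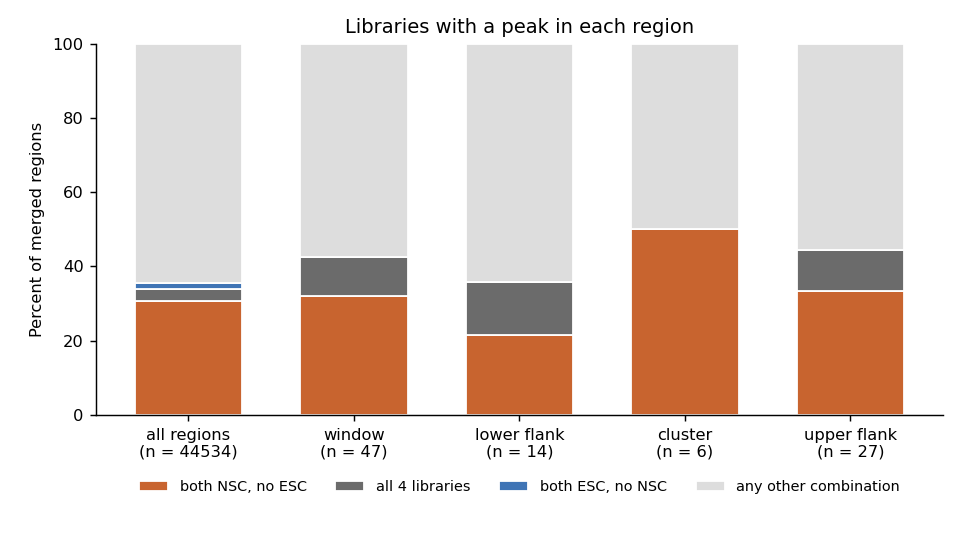
Percent of merged regions by the libraries that have a peak there, for all regions of the series and for the HOXC window, its flanks and the cluster, with the number of regions under each bar. The share with peaks in both NSC libraries and no ESC library is 31.9% in the window and 30.6% in the series, and the share with peaks in all 4 libraries is 10.6% against 3.27%.

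The regions of all 4 libraries lay in both flanks. The region at chr12:53625824-53626632 covered an end of ATF7, a stress-responsive transcription factor, and of the read-through gene ATF7-NPFF, with −log10 q of 7.65 and 36.9 for ESC1 and ESC2 and of 46.8 and 32.2 for NSC1 and NSC2. Another, chr12:54279597-54280775, lay between CBX5, which encodes heterochromatin protein HP1 alpha, and HNRNPA1, an RNA-binding splicing factor. Its values were 7.74, 30.8, 39.2 and 42.4, and it holds the CBX5 stretch printed above. At chr12:54324680-54325174, over COPZ1, a coat protein of vesicles in the early secretory pathway, the values were 12.7, 18.7, 27.8 and 9.14, and peaks of all 4 libraries covered the whole printed stretch. The other 2 regions of all 4 libraries lay inside genes but on further starts in the promoter table, in ATP5MC2, an ATP synthase subunit (4.28, 29.9, 17.0 and 14.4), and in CBX5 (2.60, 11.6, 8.39 and 7.65). These places show that both ESC libraries had peaks in the window, outside the cluster.

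Next to these, 5 flank genes carried peaks at an end in ESC2 and both NSC libraries but not in ESC1. PRR13 had −log10 q 11.9, 13.2 and 5.23 in ESC2, NSC1 and NSC2. PCBP2, an RNA-binding protein, had 12.02, 25.8 and 14.2. MAP3K12, a neuronal kinase of axon injury signalling, and TARBP2, a partner of Dicer, shared a region with 7.99, 16.1 and 14.5. CALCOCO1, an autophagy receptor, had 10.5, 13.9 and 14.1.

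Of the 20 flank genes 2 were NSC-only at an end, near the 16.2% of all genes, both in the upper flank and both weak. ITGA5, the fibronectin receptor subunit, had −log10 q 3.07 in NSC1 and 1.38 in NSC2. PDE1B, a calcium-dependent phosphodiesterase, had 3.01 and 3.39, from peaks of the 2 libraries that did not overlap. NFE2, a blood-lineage factor, had a peak of 2.48 in NSC1 alone, and ZNF385A 2.05 in NSC2 alone. There was none in any library at an end of NPFF, ATP5MC2, SMUG1, GPR84, GTSF1 and NCKAP1L.

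The strongest NSC-only regions of the flanks lay in lncRNA genes or inside coding genes. The region at chr12:54195594-54196296, in the lncRNA LOC105369777 and 6609 bp from SMUG1, had −log10 q 10.2 in NSC1 and 15.4 in NSC2. Inside GPR84 and 297 bp past COPZ1, chr12:54352143-54352588 had 15.7 and 9.55. Next came chr12:54081293-54081516, in the lncRNAs FLJ12825 and LOC100240735 and 25263 bp beyond HOXC4, with 16.5 and 5.99. In the lower flank, chr12:53746591-53747009, in CISTR, an lncRNA of cartilage, lay 191822 bp before the cluster and had 9.82 and 5.70. The region at chr12:54262441-54262790, inside CBX5, had 6.60 and 4.67 and covered 174 and 55 bases of the SCAT2 stretch printed above. Of 24 lncRNA genes in the window, CISTR, LOC100240735, GPR84-AS1 and LOC124902939 were NSC-only at an end. The share of this class over all lncRNA genes was not computed, and over protein-coding genes it was 16.2%. SCAT2 had peaks of all 4 libraries within 1 kb of an end, though only NSC peaks on its printed stretch.

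The 4 regions with a peak in ESC2 alone were the one at HOXC13, one in the lncRNA LOC105378250 (4.91), one 13637 bp from CBX5 (5.89) and one 16057 bp from GTSF1 (3.09). ESC1 had no peak of its own in the window.

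The other HOX clusters gave the same contrast within their bounds. All 3 had 0 peaks in ESC1 and ESC2, while NSC1 and NSC2 had 8 and 5 in HOXA, 5 and 6 in HOXB and 3 and 5 in HOXD, beside 6 and 3 in HOXC. The flanks were less alike. The windows with 500 kb on either side had 0 and 2 ESC peaks in HOXA and 0 and 2 in HOXD, but 5 and 15 in HOXB and 7 and 17 in HOXC. The NSC libraries had 24 and 20 in HOXA, 39 and 39 in HOXB and 15 and 16 in HOXD. The ratio of NSC to ESC means was 22 for HOXA, 3.9 for HOXB and 15.5 for HOXD, beside 2.96 for HOXC, the lowest of the 4. With 2 libraries per cell type these ratios rest on few ESC peaks, and the differences between clusters were not tested.

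**Figure D5:**
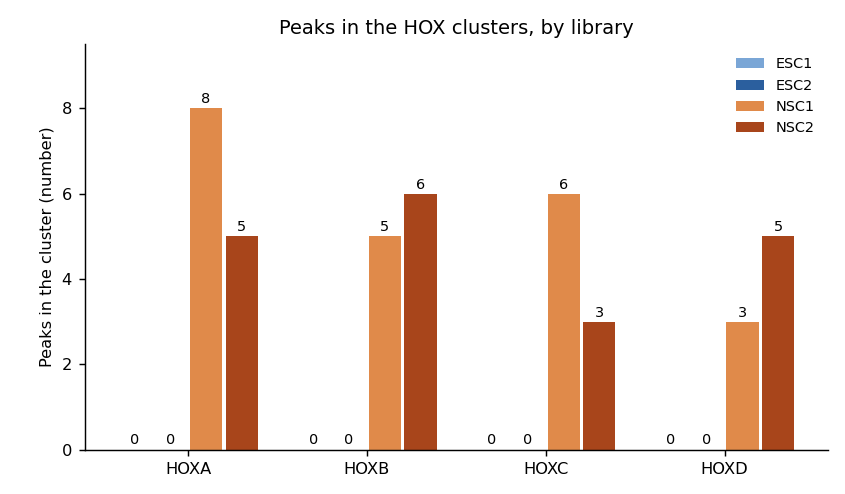
Number of BAF45D peaks inside each HOX cluster, 1 bar per library. Both ESC libraries have 0 in all 4 clusters, and the NSC libraries have 3 to 8.

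Peaks in the other clusters stood on a similarly high local background. The median was 15.4 and 11.9 times the mean coverage in NSC1 and NSC2 for HOXA, 12.03 and 10.2 for HOXB and 11.4 and 9.63 for HOXD, beside 12.4 and 12.5 for HOXC. The strongest peak in HOXC, with −log10 q 19.3 and 14.2, was of the order of those in HOXA (18.7 and 19.0) and HOXB (16.5 and 16.3), and stronger than those in HOXD (7.64 and 5.44), by each library's own list.

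The genes were also split by paralog group, a split chosen after the values were seen, beside the 19.7% of all genes NSC-only within 10 kb. Within 10 kb, 4 of 4 HOXC genes of paralog groups up to 8 were NSC-only and 0 of 5 of groups 9 to 13. The counts were 6 of 7 and 0 of 4 for HOXA, 4 of 8 and 0 of 2 for HOXB, and 2 of 4 and 1 of 5 for HOXD, where the posterior gene was HOXD9. In the posterior groups single libraries had peaks too: NSC1 at 3 of 5 HOXC genes, NSC2 at 2 of 4 HOXA genes, NSC1 at 1 of 2 HOXB genes, and at HOXD genes NSC2 at 4 of 5 and NSC1 at 1. Neighbouring genes share peaks, so these counts are not independent, and with 2 to 5 posterior genes a count of 0 is near the share of all genes.

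At gene ends, 6 of the 30 other HOX genes were NSC-only, near the 16.2% of all genes, and within 10 kb 13 of 30, against 19.7%. HOXB3 and HOXB5 had the highest values, 16.5 in NSC1 and 16.3 in NSC2, from the same peaks. None of the 4 HOXA, 2 HOXB, 5 HOXC and 5 HOXD genes of groups 9 to 13 was NSC-only at an end, against 16.2% of all genes. HOXD8 was the most posterior gene in this class. This split too was made after the values were seen, and the difference between the groups was not tested.

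HOX proteins bind DNA with TALE cofactors of the MEIS, PBX and PKNOX families. Of 9 such genes, 4 were NSC-only at a gene end, against the 16.2% above. MEIS1 had −log10 q 7.42 in NSC1 and 8.65 in NSC2, MEIS2 10.3 and 8.01, PBX3 8.02 and 9.32 and PBX4 5.81 and 7.73. Per library the counts at an end were 1, 2, 7 and 7 of 9, beside the same shares of all genes as for the HOXC genes. Within 10 kb only 2 of 9, MEIS2 and PBX4, were NSC-only, near the 19.7% of all genes. MEIS1 and PBX3 left the class at that distance, and 3 of 9 TALE genes had peaks in all 4 libraries.

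Of 12 genes of Polycomb complexes, 4 were NSC-only at an end, against 16.2% of all genes. They were EZH2, the methyltransferase (2.41 and 4.34), EED (3.19 and 8.40) and SUZ12 (17.2 and 6.79), its partners, and CBX8, a reader of the mark (5.42 and 7.09). The counts per library were 0, 1, 6 and 7 of 12, against 6.67%, 22.8%, 42.8% and 38.1% of all genes, so the NSC counts have to be read against the longer NSC lists. Within 10 kb, 5 of 12 were NSC-only, against 19.7% of all genes. EED left the class at that distance, and BMI1 and CBX2 entered it. Of 13 genes that act upstream of HOX activation, among them CDX factors, retinoic acid receptors, FGF8, GDF11 and WNT3A, none had a peak at an end in any library. Within 10 kb, RARA and ALDH1A2, the retinoic acid synthesis enzyme, were NSC-only, 2 of 13 against 19.7% of all genes.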

How the data were processed

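BAF45D CUT&Tag peak lists of 2 ESC and 2 NSC libraries were used. The submitters' processing notes name hg38, BWA 0.7.12, Trimmomatic and FastQC. Peaks were called per library without a control by MACS2 2.1.0.20150420 at q 0.05, with reads shifted by -100 bp and extended to 200 bp, a regional background of 10000 bp and a genome size of 3099750718 bp, per the file headers. The authors deposited, for each summit, the pileup as a signal value, −log10 p and −log10 q, and fold enrichment, the ratio of the pileup plus 1 to the local background plus 1. All describe a peak within its own library. They served to rank or filter peaks in that list, and pileup and fold also to compute the local background. Libraries with an untargeted antibody were not analysed here.

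Entries with the same start and end were joined, keeping the highest −log10 q, on chromosomes 1 to 22 and X. The local background was divided by the library's mean coverage before values of different libraries were set side by side; with it the deposited −log10 p was recomputed as a Poisson tail within 0.01 for at least 99.7% of entries per library, and its lowest value equalled the mean coverage given by the headers. Peaks overlapping by at least 1 bp were merged to regions. Gene positions and promoter and microRNA sequences came from RefSeq tables of GRCh38.p14. The gene table has no strand, so gene ends cannot be split into starts and 3′ ends. It has no transcripts either, so it does not show starts inside a gene. Strand was known from the promoter table for 2 of 9 HOXC genes. Counts of peaks were compared by a two-sided exact permutation test over libraries. The scripts were tested on simulated data. Python 3.11.15, pandas 2.3.3, numpy 2.4.6 and scipy 1.17.1 were used.

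The members and the gene lists were chosen with earlier results of these data known, and 1 count, of NSC-only regions in the cluster, was added after seeing the data. The genes named are the HOXC genes, the non-coding genes of the cluster, the flank genes NSC-only, ESC-only or in all 4 libraries at an end, every region of the cluster and the strongest regions of each class. Genes, promoters and regions named beyond these were chosen after their values were seen. Alternatives were a stricter q, equal list length, each library left out, other flanks, overlaps and distances, every summit counted, and a replicate block.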

Additional observations from a re-analysis of the deposited data

How the results depend on the processing

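Both peak differences, 23.5 in the window and 4.5 in the cluster, kept their sign in every alternative run. They ranged from 1.5 to 29 in the window and from 1 to 6 in the cluster. At equal list length, where the window difference was 1.5, ESC2 had 11 window peaks and NSC2 9. The counts of NSC-only places depended on the length of the lists. At −log10 q of at least 5 the NSC-only regions of the window fell from 15 to 6 and the HOXC genes at an end from 3 to 0. At equal list length they were 1 and 0, the HOXC genes within 10 kb 1 in place of 4, and the NSC-only regions of the cluster 1 in place of 3. With flanks of 100 kb the window had 4 such regions. Leaving out 1 library in turn gave 15 to 26 regions in the window, 3 to 6 in the cluster, 3 to 4 genes at an end, 4 to 7 genes within 10 kb, and peak differences of 18.5 to 28.5 and 3 to 6, without a test; NSC2 was the library whose absence gave 26, 6 and 7. With same-numbered libraries as pairs in a replicate block the differences were 23.5 and 4.5 by construction. The exact sign-flip p was 0.5 each, the smallest that 2 pairs allow. The labels do not say that the numbers pair the libraries. Other overlaps, gene-end windows and distances kept each count within 1.5 times. With gene starts alone 2 HOXC genes were NSC-only, but strand was known for only 2 of 9, so no higher count was possible. The NSC libraries had the fewer tags and the longer lists, and the part of read depth in the HOXC difference was not tested.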
